A study of Rattus norvegicus with 6 samples.

Results

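The miRNAs described here are rno-miR-99a-5p, rno-miR-99b-5p, rno-miR-100-5p, rno-miR-125a-5p, rno-miR-125b-5p, rno-miR-10a-5p and rno-miR-10b-5p, chosen by name because of their related mature sequences and where their genes lie. They are 7 of 562 miRNAs measured. Small RNA was sequenced from the hypothalamic arcuate nucleus (ARC) of Sprague-Dawley rats aged 8 to 10 weeks. In CCI-ION rats, loose silk ligatures around the left infraorbital nerve gave a chronic constriction injury used as a model of trigeminal neuropathic pain. In sham-operated rats the nerve was exposed and not ligated. Each group had 3 libraries from day 14 after the operation, and the labels give no genetic change in either group. The study names more rats than libraries per group for these profiles, so a library may hold RNA of several rats. Which rats went into which library is not given in the sources used here, so the p-values measure only the spread between libraries, which may be technical.

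Values are normalized counts, that is, reads divided by a scaling factor for each library. The sham libraries held 11115049 to 14313839 miRNA reads and the CCI-ION libraries 8628309 to 11297551. Changes were tested with limma on log2(value + 1) over 555 miRNAs, two-sided, at a Benjamini-Hochberg adjusted p of 0.05. By that rule 38 miRNAs, 6.85% of those tested, passed, with 19 (3.42%) higher and 19 (3.42%) lower in CCI-ION rats. Since whole tissue was used, fewer cells of a type and less RNA per cell cannot be told apart in any value below.

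A mature miRNA guides an Argonaute protein to messenger RNAs that pair with its seed, bases 2 to 8, and those messengers are repressed. The miR-99/100, let-7 and miR-125 families are ancient neighbours: their hairpins sit together on shared primary transcripts, let-7 and miR-125 being known from developmental timing and neuronal differentiation, and miR-99/100 from repression of the growth kinase mTOR. The miR-10 family resembles miR-99/100 in sequence, but its genes lie inside the Hox clusters, which pattern the hindbrain, spinal cord and trunk, and it is known as a product of those posterior regions rather than of the forebrain.

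The mature sequences show which members can share targets and which could share reads. They are printed 5′ to 3′ from RefSeq (GRCr8), with the seed in capitals. RefSeq entries matched 6 of the 7 members, and miR-99a-5p is named only. How far miR-99a-5p could share reads with miR-100-5p or miR-99b-5p is therefore not shown.
miR-100-5p: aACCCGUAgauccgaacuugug
miR-99b-5p: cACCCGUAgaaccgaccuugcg
miR-125a-5p: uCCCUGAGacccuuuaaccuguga
miR-125b-5p: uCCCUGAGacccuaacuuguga
miR-10a-5p: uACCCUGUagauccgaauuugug
miR-10b-5p: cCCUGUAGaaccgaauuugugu
The first pair shared the seed ACCCGUA and differed at 4 of 22 bases, written from miR-100-5p to miR-99b-5p and counted from the 5′ end as A1C, U11A, A16C and U21C. The miR-125 members shared the seed CCCUGAG and their first 13 bases, and miR-125a-5p was 2 bases longer. Only 1 base separated miR-10a-5p from miR-10b-5p over the 21 bases they have in common, U12A counted along miR-10a-5p. In these entries the mature miR-10b-5p starts 2 bases further along its hairpin than miR-10a-5p does, so the seeds as annotated are not the same. Where counting could split reads between such close sequences, the level of a single member is uncertain, and how such reads were assigned is not given in the sources used here.

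In RefSeq's annotation, the let-7-linked members come from 3 clusters. Mir99a, Mirlet7c1 and Mir125b2 lie on chromosome 11 within LOC103693508. Mir100, Mirlet7a-2 and Mir125b1 lie on chromosome 8 within Mir100hgl and Lnc215. Mir99b, Mirlet7e and Mir125a lie on chromosome 1 within Spaca6. Mir10a lies on chromosome 10 next to Hoxb4, and Mir10b on chromosome 3 overlaps Hoxd4. The mature miR-125b-5p can come from both Mir125b1 and Mir125b2, and let-7a-5p and let-7c-5p have a further gene outside the clusters, so these mature forms do not report on a single transcript.

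The let-7-linked members were among the most abundant ARC miRNAs and the Hox-linked members were scarce beside them. In sham rats the order by normalized count was miR-99a-5p, miR-125b-5p, miR-125a-5p, miR-100-5p, miR-99b-5p, miR-10a-5p and miR-10b-5p, and no neighbours in that order had overlapping ranges. Steps between neighbours ran from 1.36-fold to 2.83-fold except between miR-99b-5p and miR-10a-5p, where the level dropped 174-fold. miR-99a-5p ranked 3 of all miRNAs in sham rats and made up 5.98% ± 0.442 (SD, n = 3) of the counts, while miR-10a-5p ranked 296 and miR-10b-5p 332. CCI-ION rats had the same order, but there miR-125a-5p and miR-100-5p overlapped and their means were 1.04-fold apart. Together the 7 members took 13.1% ± 0.500 of the counts in sham libraries and 16.3% ± 1.92 in CCI-ION libraries (SD, n = 3 each). Their summed normalized counts were 1571472 ± 83704 and 1702828 ± 207916, a ratio of 1.08 with overlapping groups. The total over all miRNAs tested was lower in CCI-ION libraries, at 10319523 to 10511452 against 11316954 to 12703108, which raises shares there.

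**Figure D1:**
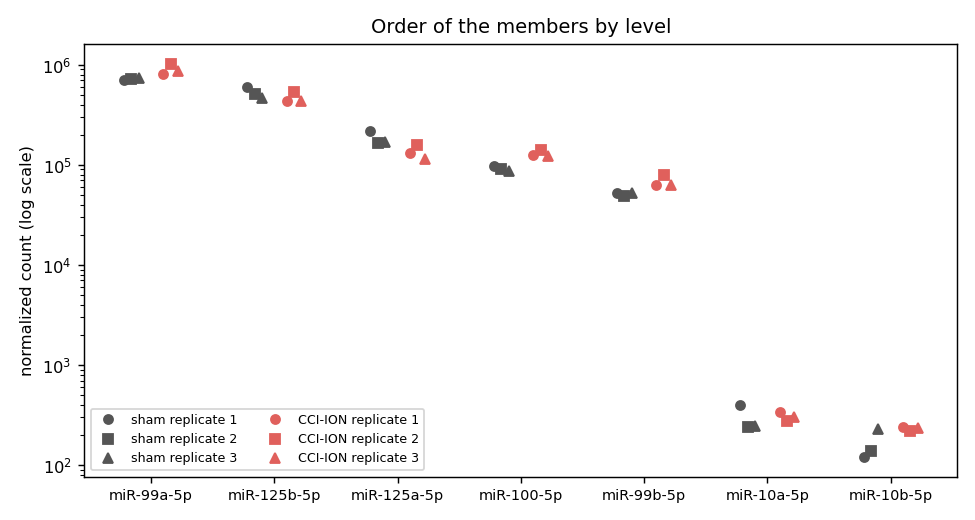
Normalized count of each member in every library on a log axis, with sham and CCI-ION libraries in different colours. The 5 let-7-linked members lie between 48787 and 1027421, and the Hox-linked pair lies between 120.0 and 398.9.

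All 3 members of the miR-99/100 family had higher levels in every CCI-ION library than in any sham library, although none passed the adjusted threshold. Groups that do not overlap were common in these data, at 40.7% of all miRNAs tested and 19.5% for those higher in CCI-ION rats. miR-100-5p measured 97864, 91307 and 87503 normalized counts in the sham libraries and 124566, 141029 and 122065 in the CCI-ION libraries. Its mean was 92225 ± 5241 against 129220 ± 10303 (SD, n = 3 each). The log2 fold change was 0.49 (SE 0.12, 95% interval 0.20 to 0.77, limma adjusted p = 0.0649). That adjusted p ranged from 0.0215 to 0.208 over the alternative settings, and 5 of 16 put miR-100-5p past the threshold. This was the nearest any member came to it.

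For miR-99b-5p the sham libraries gave 52728, 48787 and 51857 normalized counts, and the CCI-ION libraries 63122, 78658 and 62853. The highest sham value lay below the lowest CCI-ION value, and the log2 fold change was 0.41 (SE 0.13, 95% interval 0.08 to 0.74, limma adjusted p = 0.107). miR-99a-5p, the most abundant member, measured 697350, 718681 and 734954 in sham libraries and 807511, 1027421 and 870484 in CCI-ION libraries. Here too the groups stood apart, with a log2 fold change of 0.32 (SE 0.13, 95% interval 0.00 to 0.65, limma adjusted p = 0.150). Scaled to equal totals, the change was 0.53 for miR-99a-5p and 0.61 for miR-99b-5p, of which miR-99b-5p passed. Summed over the family, the sham libraries held 860344 ± 13255 normalized counts and the CCI-ION libraries 1099237 ± 131550 (SD, n = 3 each), a ratio of means of 1.28. As a share of all counts the family went from 7.17% ± 0.461 to 10.5% ± 1.23.

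The miR-125 members, made from the same clusters, had lower means in CCI-ION rats. miR-125a-5p measured 220421, 164843 and 170774 normalized counts in sham libraries and 131289, 156634 and 114757 in CCI-ION libraries. All CCI-ION values lay below the sham values, as for 21.3% of all miRNAs, and the log2 fold change of -0.46 (SE 0.18, 95% interval -0.92 to -0.01) did not pass (limma adjusted p = 0.146). With libraries scaled to equal totals it was -0.26 (limma adjusted p = 0.292). miR-125b-5p measured 598633, 508844 and 468500 in sham libraries and 437951, 537747 and 430784 in CCI-ION libraries. Its groups overlapped through CCI-ION replicate 2, and its log2 fold change of -0.16 (SE 0.16, 95% interval -0.55 to 0.22, limma adjusted p = 0.481) had the other sign, 0.04, when libraries were scaled to equal totals. With 1 library left out it ran from -0.27 without CCI-ION replicate 2 to -0.07 without sham replicate 1. The summed family was 710672 ± 95426 in sham and 603054 ± 79974 in CCI-ION libraries (SD, n = 3 each), with overlapping ranges.

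Among the 512 of 562 measured miRNAs with a matching RefSeq sequence, 1 more carried the miR-125 seed. miR-351-5p, which is not made from these clusters, is shown for its shared first 8 bases.
miR-351-5p: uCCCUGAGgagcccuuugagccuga
It measured 3534, 3405 and 4452 normalized counts in sham libraries and 5235, 7898 and 6138 in CCI-ION libraries. Unlike the miR-125 members its CCI-ION values were all above its sham values, with a log2 fold change of 0.75 (SE 0.20, limma adjusted p = 0.0828). It passed when libraries were scaled to equal totals (limma adjusted p = 0.0443), with a minimum of 10 reads per library (0.0391) and with an intensity trend (0.0314). Because it was far scarcer than miR-125b-5p, adding it to the family left the summed level overlapping between groups, at 714469 ± 95108 and 609478 ± 81172.

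**Figure D2:**
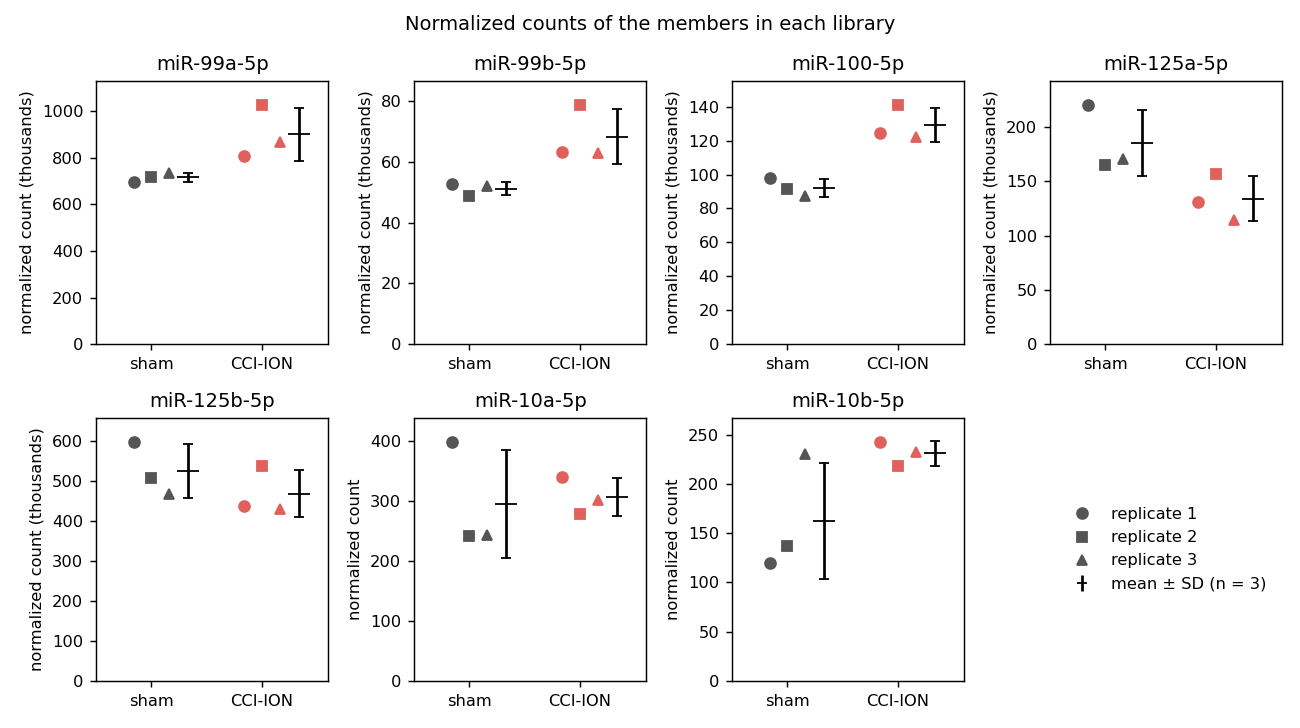
Normalized count of each member by library on linear axes that start at 0, with points for the 3 sham and 3 CCI-ION libraries and black error bars for the mean ± SD. The miR-99/100 members stand apart upward and miR-125a-5p downward, while miR-125b-5p, miR-10a-5p and miR-10b-5p overlap.

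The Hox-linked members rested on far fewer reads. miR-10a-5p measured 398.9, 241.1 and 243.6 normalized counts in sham libraries and 340.5, 277.6 and 301.4 in CCI-ION libraries, from 228 to 366 reads each. The groups overlapped, and the log2 fold change of 0.09 had a 95% interval of -0.49 to 0.68, which leaves room for a difference either way (limma adjusted p = 0.809). It was -0.03 without sham replicate 2 and -0.02 without sham replicate 3, and reached 0.33 at its highest with 1 library left out. With libraries scaled to equal totals it was 0.30 (limma adjusted p = 0.349). miR-10b-5p measured 120.0, 137.2 and 230.1 in sham libraries and 242.8, 218.0 and 232.5 in CCI-ION libraries, from 105 to 273 reads each. Sham replicate 3 lay among the CCI-ION values and the other sham replicates below them, with a log2 fold change of 0.56 (SE 0.26, 95% interval -0.09 to 1.21, limma adjusted p = 0.192). The pair did not vary together: sham replicate 1 was the highest of all 6 libraries for miR-10a-5p and the lowest for miR-10b-5p. The log2 ratio of miR-10b-5p to miR-10a-5p spread from -1.72 to -0.08 among sham libraries and from -0.49 to -0.35 among CCI-ION libraries, and the groups overlapped (exact permutation p = 0.4, two-sided).

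The other miRNAs of the Hox clusters were scarcer still. Of 7 names looked for in the miR-196 and miR-615 families, 2 were listed, miR-196a-5p and miR-196b-5p. Both were at 0 in all sham libraries and in CCI-ION replicates 1 and 2, and CCI-ION replicate 3 gave 5 and 6 reads. The smallest count listed above 0 in any library was 5 reads, so a value of 0 may stand for a few reads.

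Counted over the members, 0 of 7 passed with limma, against the 6.85% of all miRNAs. At an unadjusted p under 0.05 there were 4 of 7, namely miR-99a-5p, miR-99b-5p, miR-100-5p and miR-125a-5p, where the share over all miRNAs was 33.0%, and 1 to 3 of 7 when any single library was left out. The groups stood apart for 4 of 7, with 3 higher and 1 lower in CCI-ION rats, beside 40.7% of all miRNAs, 19.5% higher and 21.3% lower. The median log2 fold change was 0.32 over the members and -0.01 over all miRNAs. CCI-ION replicate 2 had the highest value of its group for all 5 let-7-linked members, those with lower group means included.

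The let-7 miRNAs and opposite hairpin arms made from the same clusters give other readouts of these transcripts. Of 14 such partners, 12 were listed and tested, and 0 passed with limma, with 1 at an unadjusted p under 0.05 beside 33.0% of all miRNAs. The 5p let-7 members of the clusters, which are major repressors of growth and stem cell genes, are printed to show that their seed is unlike that of any member.
let-7c-5p: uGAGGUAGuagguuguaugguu
let-7a-5p: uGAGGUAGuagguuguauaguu
let-7e-5p: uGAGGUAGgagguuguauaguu
Their log2 fold changes were -0.11 for let-7c-5p, -0.05 for let-7a-5p and -0.24 for let-7e-5p, each with overlapping groups. With 1 library left out let-7c-5p ran from -0.19 to -0.04 and let-7e-5p from -0.33 to -0.14. Scaled to equal totals, let-7c-5p and let-7a-5p had changes of the other sign, 0.09 and 0.15, and that of let-7e-5p shrank to -0.03. Summed, the 3 came to 606140 ± 39659 in the sham group and 569148 ± 61608 in the CCI-ION group (normalized counts, SD, n = 3 each). Groups stood apart for 2 of the 12 partners, beside 40.7% of all miRNAs. They were let-7a-2-3p, at 16.0 to 19.4 in sham and 20.5 to 29.8 in CCI-ION libraries, and miR-125b-2-3p, which measured 4788, 4858 and 5228 in sham and 5242, 7557 and 6720 in CCI-ION libraries. Both were higher in CCI-ION rats, the latter by 0.38 (log2, limma adjusted p = 0.174). With libraries scaled to equal totals miR-125b-2-3p was higher by 0.58 (limma adjusted p = 0.086).

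**Figure D3:**
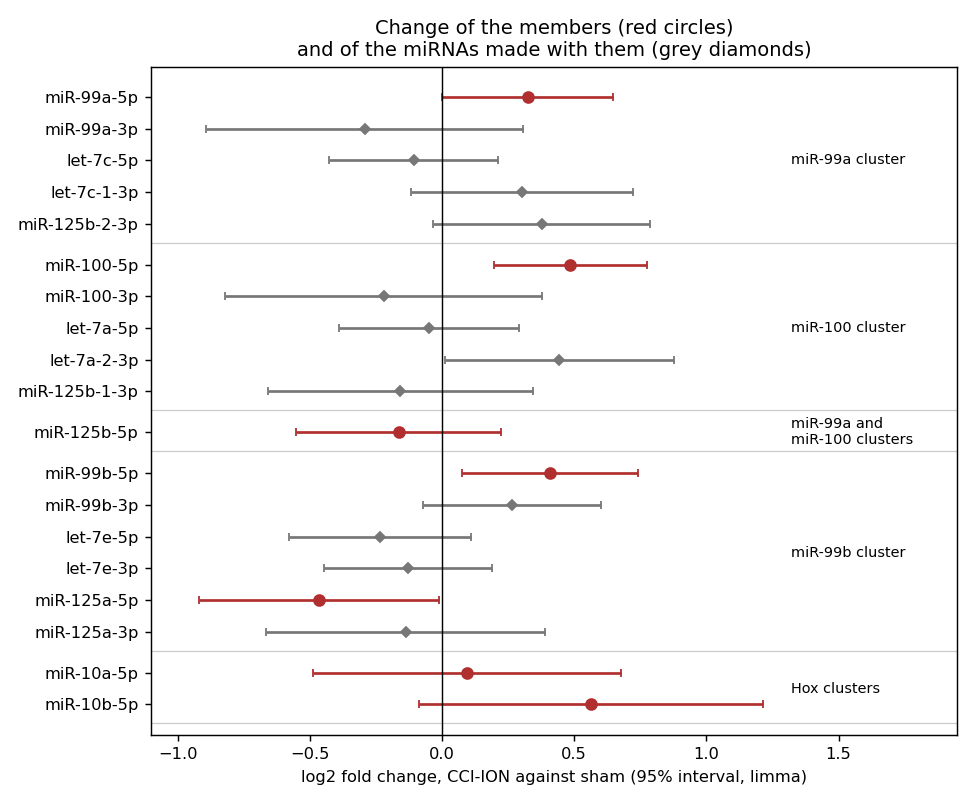
Log2 fold change of CCI-ION against sham (limma, points, with 95% intervals) for the members and their partners, grouped by cluster. Within each of the 3 clusters the miR-99/100 member has the highest value among the major 5p products, up to 0.49 for miR-100-5p, and the miR-125 member is at -0.16 or -0.46, the first of which turns to 0.04 when libraries are scaled to equal totals.

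The balance between the arms of each hairpin was tested separately, as the log2 ratio of 5p to 3p over 194 hairpins, of which 20 (10.3%) passed with limma. Of the 6 hairpin arm pairs of members, 0 passed and 3 had an unadjusted p under 0.05, against 33.5% of all hairpins. The 5p arm dominated throughout, by 12.2-fold for miR-99b and by 14238-fold for miR-99a in sham libraries. For miR-99a the ratio was 21835 in CCI-ION libraries, a log2 difference of 0.62 (limma adjusted p = 0.138), and for miR-100 it was 3445 in sham and 5620 in CCI-ION libraries (0.71, limma adjusted p = 0.132). These rest on few 3p reads, from 31 to 57 for miR-99a-3p and from 15 to 37 for miR-100-3p. The miR-125b-2 pair had a difference of -0.54 (limma adjusted p = 0.124) and the miR-125b-1 pair one of -0.01, and both contain the same 5p reads. Without CCI-ION replicate 3 the miR-99a ratio passed (limma adjusted p = 0.0437).

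Ratios between products of a cluster are free of library scaling. In the 6 ratios of a miR-99/100 member to the let-7 and miR-125 products of its cluster, the groups stood apart. These ratios, that of the miR-10 pair and those of let-7 to miR-125 were chosen after the values had been seen. Of all ratios between any 2 tested miRNAs, 37.6% had groups that did not overlap. That share covers all pairs, while the miR-99/100 members had already stood apart upward on their own. Since miR-125a-5p had stood apart downward, separation of the ratio of miR-99b-5p to miR-125a-5p follows from the single values and adds nothing to them. With 3 libraries against 3, the exact permutation test cannot give a two-sided p below 0.1, and each of the 6 ratios reached that value. The log2 ratio of miR-99b-5p to miR-125a-5p, from the cluster on chromosome 1 whose mature forms have no other gene, was -2.06, -1.76 and -1.72 in sham libraries and -1.06, -0.99 and -0.87 in CCI-ION libraries. miR-99b-5p was thus at 0.278 of miR-125a-5p in sham rats and at 0.509 in CCI-ION rats, a relative change of 1.83-fold. Against let-7e-5p of the same cluster, its log2 ratio was -0.19, -0.15 and -0.15 in sham libraries and 0.38, 0.50 and 0.56 in CCI-ION libraries, so that miR-99b-5p was the scarcer of the pair in sham rats and the more abundant in CCI-ION rats.

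In the chromosome 8 cluster, the log2 ratio of miR-100-5p to miR-125b-5p was -2.61, -2.48 and -2.42 in sham and -1.81, -1.93 and -1.82 in CCI-ION libraries, a difference of 0.65. Its ratio to let-7a-5p differed by 0.53. In the chromosome 11 cluster, miR-99a-5p against let-7c-5p was at 1.23, 1.37 and 1.20 in sham and 1.57, 1.73 and 1.79 in CCI-ION libraries, a difference of 0.43, and against miR-125b-5p the difference was 0.49. When any single library was left out, the differences of the 6 ratios stayed between 0.37 and 0.94. The ratios share members, and miR-125b-5p enters 2 of them, so they are not 6 separate observations. In the remaining ratios, of let-7 to miR-125 within a cluster, the differences were smaller, at 0.06 for let-7c-5p and 0.11 for let-7a-5p against miR-125b-5p, both with overlapping groups. That of let-7e-5p to miR-125a-5p was higher in all CCI-ION libraries, by 0.23 (exact permutation p = 0.1, 0.3 adjusted over the 3). With 1 library left out the let-7a-5p difference ran from 0.06 to 0.21 and the let-7e-5p difference from 0.13 to 0.29, each lowest without sham replicate 1 and highest without sham replicate 3.

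**Figure D4:**
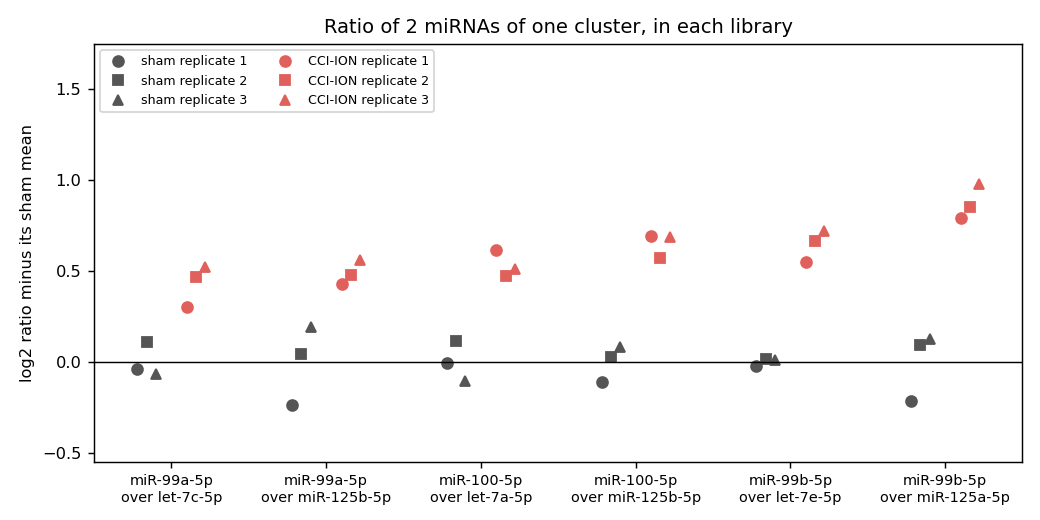
Log2 ratio of each miR-99/100 member to the let-7 and miR-125 products of its cluster, 1 point per library, sham and CCI-ION side by side. In all 6 ratios the CCI-ION points lie above the sham points, with differences of group means from 0.43 to 0.87.

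The distance between let-7-linked and Hox-linked members did not separate the groups. It averages 3 let-7-linked members with log2 fold changes above 0 and 2 below, and its Hox-linked pair rests on 105 to 366 reads per library. The mean log2 level of the 5 let-7-linked members lay above that of the Hox-linked pair by 9.94, 10.04 and 9.66 in sham libraries and by 9.47, 9.98 and 9.56 in CCI-ION libraries. The group means were 9.88 ± 0.20 and 9.67 ± 0.27 (SD, n = 3 each), a difference of -0.21 with overlapping ranges. Leaving out CCI-ION replicate 2 gave -0.36 and leaving out sham replicate 3 gave -0.32. The difference was -0.13 when sham replicate 2 was left out and -0.11 when CCI-ION replicate 1 was. Of the 10 single pairs, 9 overlapped, and exact permutation p-values ran from 0.1 to 0.9 (0.5 to 0.9 adjusted over the 10). The exception was miR-125a-5p against miR-10b-5p, lower in all CCI-ION libraries by a mean of 1.03 on the log2 scale (exact permutation p = 0.1, adjusted 0.5).

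Likeness of pattern across the 6 libraries was measured as the root mean square difference between log2 values after centring each miRNA on its own mean. The difference was 0.071 between miR-99a-5p and miR-99b-5p, 0.075 between miR-99b-5p and miR-100-5p, 0.12 between miR-99a-5p and miR-100-5p and 0.17 between the miR-125 members, but 0.53 between miR-10a-5p and miR-10b-5p, more than the 0.26 between miR-10a-5p and miR-125b-5p. Each of the 7 members had its lowest value with a miRNA of another family. These are descriptions, and the points share library depth and scaling. Among 357 other miRNAs with a mean of at least 100, those nearest to miR-100-5p were miR-129-5p (0.032) and miR-504 (0.053), and miR-129-5p was also near miR-99b-5p (0.057), after miR-423-5p (0.049). miR-99a-5p was nearest to miR-671 (0.044) and miR-30c-2-3p (0.070). miR-125b-5p was nearest to miR-7a-2-3p (0.027) and miR-672-5p (0.045), and miR-125a-5p to miR-296-5p (0.098) and miR-653-3p (0.10). For the Hox-linked members the nearest were miR-30d-3p (0.16) and miR-122-5p (0.17) to miR-10a-5p, and miR-673-3p (0.17) and miR-582-3p (0.21) to miR-10b-5p.

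Some markers of cell types also differed between the groups, and the counts of markers that passed are to be read beside the 6.85% of all miRNAs that passed (3.42% in each direction) and the 33.0% at an unadjusted p under 0.05. Of all 555 miRNAs, 271 had a log2 fold change above 0 and 284 below, and 19.5% stood apart upward and 21.3% downward. Of 7 neuronal miRNAs none was at 0, but their levels in sham rats ran from a mean of 481 for miR-137-3p to 2435743 for miR-7a-5p. Summed, their normalized counts ran from 4109005 to 5146839 in the sham group and from 2691591 to 3363792 in the CCI-ION group, and miR-124-3p fell by 0.78 (log2, limma adjusted p = 0.0435), the 1 of 7 that passed, with 5 of 7 at an unadjusted p under 0.05. Most of the difference in that sum lay in miR-7a-5p, at a mean of 1190341 in CCI-ION rats (limma adjusted p = 0.0828). miR-129-5p of the same list stood apart the other way, at means of 206605 and 283191, and miR-9a-5p overlapped. Among 7 vessel wall miRNAs, 3 rose, miR-143-3p by 1.11, miR-145-5p by 0.85 and miR-199a-5p by 1.66, with 4 of 7 at an unadjusted p under 0.05, and the list's sum was 41857 to 58203 in sham and 88922 to 107794 in CCI-ION libraries. Of 4 oligodendrocyte miRNAs, miR-338-3p fell by 1.27, 3 had an unadjusted p under 0.05 and all 4 had a log2 fold change below 0, with sums of 13685 to 19928 and 10471 to 11303. The endothelial sum was 45442 to 54854 in sham and 63095 to 70810 in CCI-ION libraries, with 0 of 2 passing limma and 1 at an unadjusted p under 0.05. That sum was nearly all miR-126a-3p, while miR-126a-5p stood apart the other way, at means of 876 and 501. In the lists for pituitary and epithelium (6 tested), choroid plexus and ependyma (5), erythrocytes (3), immune cells (6) and skeletal muscle (4), 0 passed limma, with 2, 1, 1, 2 and 0 at an unadjusted p under 0.05. All 6 pituitary and epithelial miRNAs had a log2 fold change above 0, with a median of 0.72 and sums of 10541 to 15566 in sham and 13061 to 30452 in CCI-ION libraries. The 5 choroid plexus and ependymal miRNAs were also above 0, with sums of 65993 to 90237 and 85001 to 108839. In CCI-ION replicate 1, miR-200b-3p (3939) and miR-200c-3p (2240) of the pituitary and epithelial list lay within their sham ranges. Groups stood apart upward for miR-451-5p of the erythrocyte list (log2 fold change 1.07, limma adjusted p = 0.0649) and miR-223-3p of the immune list (0.95, limma adjusted p = 0.0597). They did so too for miR-375-3p of the pituitary and epithelial list (0.58, limma adjusted p = 0.137) and miR-34c-5p of the choroid plexus list (0.57, limma adjusted p = 0.136). They stood apart downward for miR-150-5p of the immune list (-0.45, limma adjusted p = 0.113), where 3 log2 fold changes were above 0 and 3 below. miR-1-3p of the skeletal muscle list also stood apart downward (-1.03, limma adjusted p = 0.212), from 5 to 39 reads per library. The other 2 erythrocyte miRNAs were below 0, miR-144-5p at -1.12 and miR-486 at -0.08. The sums of both lists overlapped, at 2837 to 3798 against 2898 to 3660 for erythrocytes and at 9543 to 11380 against 8664 to 10402 for immune cells. Skeletal muscle sums were 98.3 to 158 and 102 to 124. The part of these differences in the levels of the members was not tested.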

How the data were processed

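The authors deposited 1 table of miRNA values per library. The submitters' processing notes name cutadapt 1.14, Bowtie 1.1.1 and the rn6 genome. Annotation, counting and normalization are not given in the sources used here. Libraries were made from 1 µg of total RNA extracted with Trizol. The deposited values are a signal, read counts divided by a factor for each library: every value was a whole multiple of a step of its library within 0.05, and the smallest above 0 was 5 steps. Depths and reads were computed from those steps.

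From these values, miRNAs with a mean of at least 1 (555 of 562) were tested with limma 3.58.1 in R 4.3.3 on log2(value + 1), without covariates. Arm ratios used the same fit over 194 hairpins, and single ratios an exact permutation test (scipy 1.17.1). On simulated data with the miRNAs' means, the fit recovered 194 of 200 changes of 1 (log2) over 492 miRNAs, with 3 false calls. The arm fit recovered 34 of 40 over 163 hairpins, with 2 false calls. The log2 fold changes of the members were smaller in size, from 0.09 for miR-10a-5p to 0.56 for miR-10b-5p. Recovery of changes that small was not tested.

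The named miRNAs are the members, their opposite arms and cluster let-7 miRNAs, miRNAs sharing a seed, and the 2 nearest in pattern to each member. The members and lists were chosen with earlier results of these data known. A further few, such as the cell type markers that passed, were named after their values were seen. Replicate libraries differed beyond sampling noise. Alternatives in scaling, filter, pseudocount, variance model, block and libraries were tried.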

Additional observations from a re-analysis of the deposited data

How the results depend on the processing

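With 16 alternative settings, 5 of 7 members kept their direction in all of them. The count of members past the threshold moved from 0 to 2 when libraries were scaled to equal totals (miR-100-5p, limma adjusted p = 0.0306, and miR-99b-5p, 0.0478). It was 1, miR-100-5p each time, with scaling without the most abundant miRNA (limma adjusted p = 0.0455), a minimum mean of 10 (0.0484), a minimum of 10 reads per library (0.0418) and an intensity trend (0.0215). Equal totals shifted the median change over all miRNAs from -0.01 to 0.165 (log2) and turned these changes positive: miR-125b-5p 0.038, miR-125a-3p 0.064, miR-125b-1-3p 0.044, let-7c-5p 0.095, let-7a-5p 0.153, let-7e-3p 0.072, miR-7a-2-3p 0.027 and miR-672-5p 0.10. Scaling without the most abundant miRNA put let-7a-5p at 0.0030. The cause of these moves was not tested. Leaving out 1 library put miR-10a-5p between -0.029 and 0.333 (negative without sham replicate 2 or 3), let-7a-5p between -0.144 and 0.017 (positive without CCI-ION replicate 1) and miR-125b-1-3p between -0.347 and 0.014 (positive without CCI-ION replicate 3), put the log2 ratio difference of let-7c-5p to miR-125b-5p between -0.040 and 0.187 (negative without sham replicate 1), gave 0 to 1 member hairpins past the arm ratio threshold, and kept 0 members past theirs, with 1 to 3 at an unadjusted p under 0.05 in place of 4. Calls over all miRNAs were 38. They were 9, 11 and 7 without sham replicates 1, 2 and 3, 20, 42 and 10 without CCI-ION replicates 1, 2 and 3, 63 with the minimum mean of 10, 96 with the minimum of 10 reads, 62 with a pseudocount of 10 and 88 with an intensity trend.

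Deviations from the group means correlated at -0.03, 0.19 and -0.01 between same-numbered libraries. The labels give no pairing, and these values cannot settle whether same-numbered libraries were handled together. With the replicate number as a block, 0 members passed, miR-100-5p had a limma adjusted p of 0.153, and calls over all miRNAs were 3. The planned edgeR and DESeq2 fits were not run. Whole reads follow from the steps of the values, but the smallest above 0 was 5 reads. Depth limits the Hox-linked pair and the 3p arms of miR-99a and miR-100, which rest on few reads.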

Other observations

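The let-7 miRNAs made outside the 3 clusters can be set beside those within them. All 6 that were measured had lower means in CCI-ION rats, with a median log2 fold change of -0.50, where 284 of all 555 miRNAs were below 0. The groups stood apart for 4 of them, beside 21.3% of all miRNAs lower in this way. As a share of the counts, let-7b-5p (0.270% in sham, 0.265% in CCI-ION libraries) and let-7d-5p (0.367% and 0.366%) were nearly the same. The shares of let-7f-5p (4.93% and 3.75%), let-7g-5p, let-7i-5p and miR-98-5p were lower in CCI-ION libraries. By adjusted p, 6.85% of all miRNAs passed. Only miR-98-5p of the 6 passed, at 13871 ± 1891 in the sham group and 5346 ± 255 in the CCI-ION group (normalized counts, SD, n = 3 each), a fall of 1.37 on the log2 scale (limma adjusted p = 0.00969). let-7f-5p had 592652 ± 43006 and 391790 ± 50040 (limma adjusted p = 0.0597). The difference between these and the let-7 miRNAs of the clusters was not tested.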
